A study of Mus musculus with 250 samples.

Results

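The cells described here are suprabasal-gated keratinocytes of mouse tail skin, 71 of the 250 single cells of the series (28.4%, exact 95% interval 22.9–34.4). A cell was placed among them when the average of Krt1, Krt10, Krtdap, Dsg1a and Mt4, each centred on its mean over all 250 cells, was higher than the like averages of 6 basal genes (Krt5, Krt14, Krt15, Col17a1, Itga6, Itgb4) and of 6 upper hair follicle genes (Krt79, Cst6, Defb6, Plet1, Krt17, Aqp3). The gate left 128 basal-gated and 51 upper follicle-gated cells. The members were thus chosen by the measured levels of these 17 genes, so those levels are given as a description only.

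All cells came from Lrig1CreER/Rosa-TdTomato mice, in which Cre expressed from Lrig1 switches on a red reporter that the progeny of Lrig1-expressing cells inherit. They were sorted from tail epidermis as "Lrig1 GL" cells (an abbreviation that the labels leave unexplained) with the surface protein Sca1, which was meant to enrich the upper follicle. All 3 groups share this genotype, this sort and 1 time label, 8w_pw1, in which the second code is not spelled out. The groups differ in where the cells were taken: 84 came from control, non-memory skin, 85 from the wound bed and 81 from a memory region distal to it. Each region had 2 batches, with 1 plate per region and batch. No animal is named, so each region counts as 1 sample: differences between regions are also differences between plates, they carry no test, and the spreads printed below are spreads between cells.

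Keratinocytes divide on the basement membrane. They then move up into the spinous layers, where Krt5 and Krt14 give way to Krt1 and Krt10, the filament pair of the suprabasal cell, and desmosomes take over from attachment to the matrix. Higher still, granular cells build the cornified envelope from loricrin, filaggrin and small proline-rich proteins, and secrete barrier lipids. In mouse tail, this interfollicular epidermis lies between follicles whose upper part, the infundibulum and its neighbours, has a differentiation programme of its own.

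Levels are log2(counts per 10000 reads of the cell + 1) throughout, and a difference is one between mean levels on that scale, which understates the change of genes at low level. The gate can be read off directly in these cells. All 71 had reads of at least 4 of the 5 suprabasal genes, and 58 (81.7%) had reads of all 5. The Krt10 level ranged from 2.62 to 9.51 (median 7.91), against a mean of 0.80 in basal-gated and 3.53 in follicle-gated cells. Krtdap, a secreted keratinocyte differentiation peptide, ranged from 3.98 to 9.65 (median 7.14). Krt1 was less even, from 0 to 7.54 (median 4.60), and 59 of the 71 cells had reads of it. The suprabasal average led the next average by 0.21, 0.34 and 0.37 in the 3 members closest to the boundary, and fell short by 0.09 and 0.15 in the 2 closest cells outside it. Only 8 members led by less than 1.

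**Figure D1:**
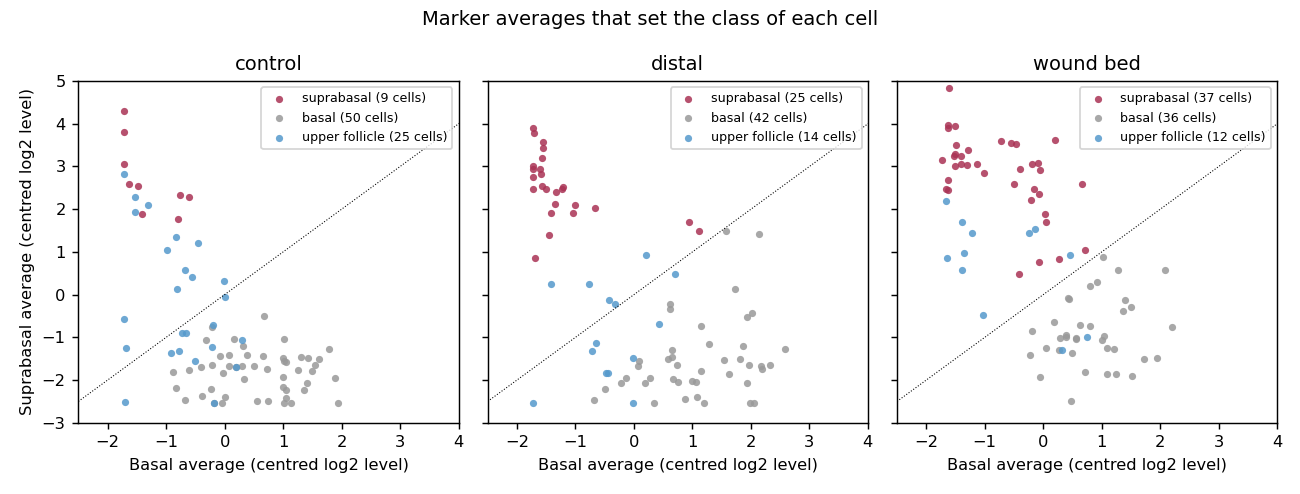
Marker averages of each cell in the control, distal and wound bed regions: the x axis is the average of the 6 basal genes and the y axis that of the 5 suprabasal genes, both centred log2 levels, coloured by class, with the dotted line at equality. Suprabasal-gated cells lie above the line in all 3 panels, and 8 of the 71, 2 distal and 6 wound bed cells, have a basal average above 0.

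The ranges of sequencing depth overlapped between regions. Members had 7481 to 3119120 reads (median 46588), with a median of 64021 in control, 36234 in distal and 41206 in wound bed cells. They had 1046 to 4403 detected genes (median 1773), and mitochondrial transcripts took a median of 25.4% of reads. Within batches the mitochondrial median was higher in wound bed than in distal members, 36.4% against 27.4% in batch 1 and 23.7% against 16% in batch 2. Of the 71, 2 distal cells had more than 500000 reads, and 3 had over 5% of non-mitochondrial reads in the repeat-like genes Gm10800, Gm10801 and Gm21738. Among those 3 were both suprabasal cells of control batch 1. Markers of cells other than keratinocytes were close to absent: of 8 immune genes, 7 had no read in any member and the other had reads in 1 control cell, while melanocyte, fibroblast, endothelial and Merkel cell genes reached at most 1 cell in any region and a summed level of at most 0.83. Only 3 of 6 melanocyte, 5 of 6 fibroblast and 3 of 5 Merkel cell genes of the lists were analysed, so the others are unknown.

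Suprabasal-gated cells made up a smaller share of control cells than of cells from either other region. They were 9 of 84 control cells (10.7%, exact 95% interval 5.02–19.4), 25 of 81 distal cells (30.9%, 21.1–42.1) and 37 of 85 wound bed cells (43.5%, 32.8–54.7). The order was the same in both batches: 7.14%, 37.5% and 53.3% in batch 1, and 12.5%, 26.5% and 38.2% in batch 2. With both batches together, the control interval overlaps neither that of the wound bed nor that of the distal region, whereas those of distal and wound bed overlap. Within each batch the control and distal intervals overlap. All these intervals cover counting error alone, since cells of 1 plate can come from 1 animal and went through 1 sort. The other classes made up the remainder, with 50 basal and 25 follicle cells among control cells, 42 and 14 among distal cells, and 36 and 12 among wound bed cells.

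**Figure D2:**
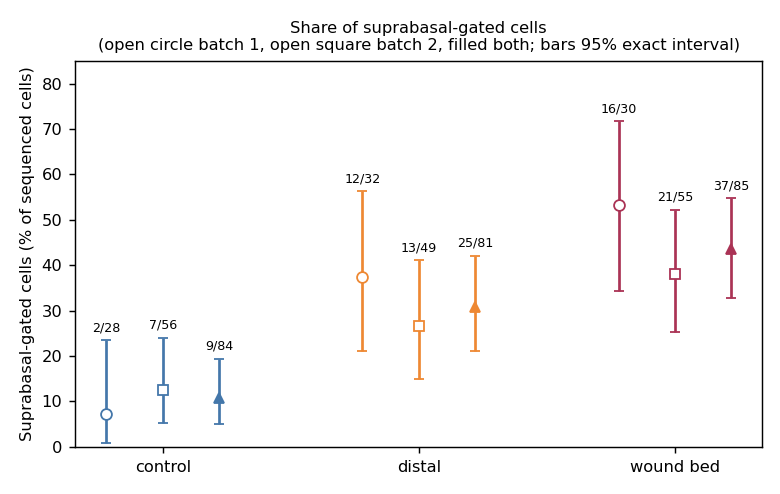
Share of sequenced cells that were suprabasal-gated (y axis, percent) by region, for batch 1 (open circle), batch 2 (open square) and both (filled triangle), with exact 95% intervals and the number of cells over each point. With both batches together, control cells had a share of 10.7%, distal cells 30.9% and wound bed cells 43.5%.

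Several genes carry the account below, and the DNA just upstream of them is shown to place them: Krt10 and Mt4 because they define the gate, Calm4 and Calm5 because both are calmodulin-like genes of the differentiating epidermis that stood apart between regions, and Mt2 and Gja1 because they did so in the other direction. Each sequence is the 250 bases before the RefSeq transcript start (GRCm38.p6), written 5′ to 3′ on the gene's own strand. Capitals in Calm4 and Calm5 mark the longest stretch that they share. Capitals in Mt4 and Mt2 mark matches to TGCNCNC, a looser form of the core of the metal response element. In Krt10 they mark the TATA box TATAAA and in Gja1 the AP-1 site TGANTCA, all searched on both strands.
Calm4, chr13:3837507-3837756, plus strand: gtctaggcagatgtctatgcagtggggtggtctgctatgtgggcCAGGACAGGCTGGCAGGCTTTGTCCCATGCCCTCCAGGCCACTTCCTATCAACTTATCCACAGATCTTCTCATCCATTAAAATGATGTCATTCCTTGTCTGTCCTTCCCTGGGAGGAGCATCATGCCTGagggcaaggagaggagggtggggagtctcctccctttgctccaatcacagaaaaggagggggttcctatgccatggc
Calm5, chr13:3853923-3854172, plus strand: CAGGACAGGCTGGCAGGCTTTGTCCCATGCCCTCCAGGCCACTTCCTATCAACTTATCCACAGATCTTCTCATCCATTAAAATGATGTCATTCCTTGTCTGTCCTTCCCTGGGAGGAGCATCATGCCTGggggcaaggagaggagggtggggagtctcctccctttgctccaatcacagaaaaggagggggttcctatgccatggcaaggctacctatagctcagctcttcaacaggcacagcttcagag
Mt4, chr8:94136954-94137203, plus strand: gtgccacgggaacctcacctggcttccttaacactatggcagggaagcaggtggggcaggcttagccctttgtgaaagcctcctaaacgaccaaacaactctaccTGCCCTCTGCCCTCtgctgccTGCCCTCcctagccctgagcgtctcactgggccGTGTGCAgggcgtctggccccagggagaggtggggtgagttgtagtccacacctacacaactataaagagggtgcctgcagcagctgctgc
Mt2, chr8:94172368-94172617, plus strand: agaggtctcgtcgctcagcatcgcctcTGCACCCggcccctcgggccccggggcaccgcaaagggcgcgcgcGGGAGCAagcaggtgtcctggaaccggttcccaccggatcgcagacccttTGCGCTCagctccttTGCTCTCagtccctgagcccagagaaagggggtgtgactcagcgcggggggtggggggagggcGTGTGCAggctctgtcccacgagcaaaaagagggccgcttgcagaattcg
Krt10, chr11:99389365-99389614, minus strand: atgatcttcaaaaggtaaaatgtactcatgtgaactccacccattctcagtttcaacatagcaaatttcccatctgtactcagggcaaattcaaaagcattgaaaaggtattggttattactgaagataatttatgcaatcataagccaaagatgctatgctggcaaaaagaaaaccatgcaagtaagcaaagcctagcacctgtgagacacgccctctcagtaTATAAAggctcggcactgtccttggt
Gja1, chr10:56377050-56377299, plus strand: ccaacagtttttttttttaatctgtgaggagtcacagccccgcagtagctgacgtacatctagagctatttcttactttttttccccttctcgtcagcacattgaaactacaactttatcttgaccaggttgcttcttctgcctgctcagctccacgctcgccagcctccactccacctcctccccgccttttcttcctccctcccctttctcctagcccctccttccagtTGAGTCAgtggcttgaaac

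Calm4 and Calm5 are neighbours on chromosome 13, and their upstream windows are near copies of each other set off by 44 bases. The shared run is 129 bases long, and over the 206 bases that can be aligned at that offset 205 are identical (99.5%). It begins 206 bases before the Calm4 start and 250 bases before the Calm5 start. Mt4 had 4 matches to TGCNCNC and Mt2 had 5, none overlapping another. The stricter core has A or G after TGC. The TGCCCTC matches of Mt4 lack it, as do TGCTCTC and GGGAGCA (read on the other strand) in Mt2. These counts and the shares of windows that follow are thus of the looser form. At least 1 match occurs in 44.4% of 32851 RefSeq promoter windows of the same length, at least 4 in 1.28% and at least 5 in 0.344%. The TATAAA of Krt10 begins 26 bases before its start, a motif found in 12.4% of windows. The AP-1 match of Gja1 begins 19 bases before its start, and 6.75% of windows hold one. The capitals do not mark every match. TATAAA also occurs in Mt4, 30 bases before its start, and an AP-1 match in Mt2, 79 bases before its start. Calm4 and Calm5 each hold 2 matches to TGCNCNC. Among genes not shown, Ly6g6c and Stfa3 had 3 such matches each and Mt1 had 1. Such matches are letters in a window and were not tied to binding here.

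The gated cells were then described in genes that the gate did not use. Suprabasal-gated and basal-gated cells of the same plate were compared in the 5 plates with at least 5 cells of both classes. The gate made the classes, so genes that vary with the gate genes differ between them by construction. This comparison and that with follicle-gated cells below are thus descriptions only. A gene met the size rule when its mean difference over plates was at least 1 and had 1 sign in every plate. Of 2826 genes considered, 63 did so (2.23%), with 43 higher (1.52%) and 20 lower (0.708%) in suprabasal cells. Counts were also summed over cells, which lets deeply sequenced cells weigh more. Differences of such sums are not differences in mean level per cell, so the same limit of 1 is not an equal cut. With sums scaled by TMM, 392 genes met the rule, 55 of them among the 63, and 46.2% instead of 68.3% were higher. With the size factors of DESeq2 the number was 410, of which 32.9% were higher.

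Krt2, the keratin of the upper spinous and granular layers of mouse tail and ear, had reads in 56 of 71 suprabasal cells (78.9%) at a mean level of 3.98 ± 3.05 (SD over cells), against a mean of 0.29 in basal cells. Its plate differences were 2.89 in control batch 2, 4.22 and 3.50 in distal batches 1 and 2, and 4.15 and 3.02 in the wound bed, with a mean of 3.55. Reads of both Krt1 and Krt2 were present in 48 suprabasal cells, and 4, all from the wound bed, had neither. Calm4 was the gene with the largest mean difference, 3.94, and every one of the 71 cells had reads of it. Its difference was 5.36 in control batch 2, 4.39 and 5.15 in the distal plates, and 2.65 and 2.18 in the wound bed plates. All 5 were positive, and both wound bed values were below the other 3.

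Further genes higher in the suprabasal cells fall into a few groups of known function. Of 10 early differentiation genes considered, 3 met the rule upwards, Krt2, Calm4 and Dmkn (dermokine, a secreted protein of differentiating layers, by 1.38), and none downwards, with a list median of 0.86 beside a median of all genes of 0.00. Of 5 clade B serpins, protease inhibitors of stratified epithelia, 3 were higher: Serpinb5 (maspin) by 2.78 on average, Serpinb12 by 1.90 and Serpinb3b by 1.50. The list median was 1.50. Of 4 stefin A genes, which encode cysteine protease inhibitors, 3 were higher: Stfa1 by 1.84, Stfa3 by 1.65 and Cstdc5 by 1.54, with a list median of 1.59. Stfa1 has 39% of the 31-base words of its transcripts in common with Cstdc5, and Serpinb3b has 35.4% in common with other genes. Reads may be divided among such genes, so the members counted here and in the stefin A counts below are not separate results. Among 6 barrier lipid genes, Elovl4, which elongates very long fatty acids, was higher by 1.26 and Acer1, a ceramidase, by 1.10. Among 11 desmosome genes, Perp was higher by 1.71 and Dsc3 lay just past the limit of 1, and the list median was 0.46. Sdr16c5, a retinol dehydrogenase, was higher by 2.30, the fatty acid carrier Fabp5 by 1.89, the secreted Ly6-family protein Slurp2 by 1.82 and the membrane-anchored Ly6d by 2.04. Dapl1, a gene of early epithelial differentiation, was higher by 2.61.

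Lower in the suprabasal cells were 2 genes of the basal list, some of other lists and several of no list. Of 9 basal adhesion and identity genes considered beyond the gate, all 9 had negative means and 2, Dst and Cav1, met the rule, with a list median of -0.63. Dst, which in one isoform links keratin to hemidesmosomes, was lower, at -1.33. Of 5 S100 genes considered, 2 met the rule downwards and none upwards, although 3 had positive means and the list median was 0.39. The calcium-binding S100a6 differed by -2.08: it had reads in 37 of 71 suprabasal and 121 of 128 basal cells. The caveolin gene Cav1 differed by -1.79, Ifitm3 by -1.76, Ifitm2 by -1.46, the ferritin genes Ftl1 and Fth1 by -1.57 and -1.28, the cyclin Ccnd2 by -1.55, and Sostdc1, an extracellular antagonist of BMP and Wnt signals, by -1.24. None of 8 differentiation transcription factors and none of 3 Notch pathway genes considered met the rule, with list medians of 0.29 and 0.01. Klf4, a factor of the upper layers, still had reads in 60 of 71 cells.

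**Figure D3:**
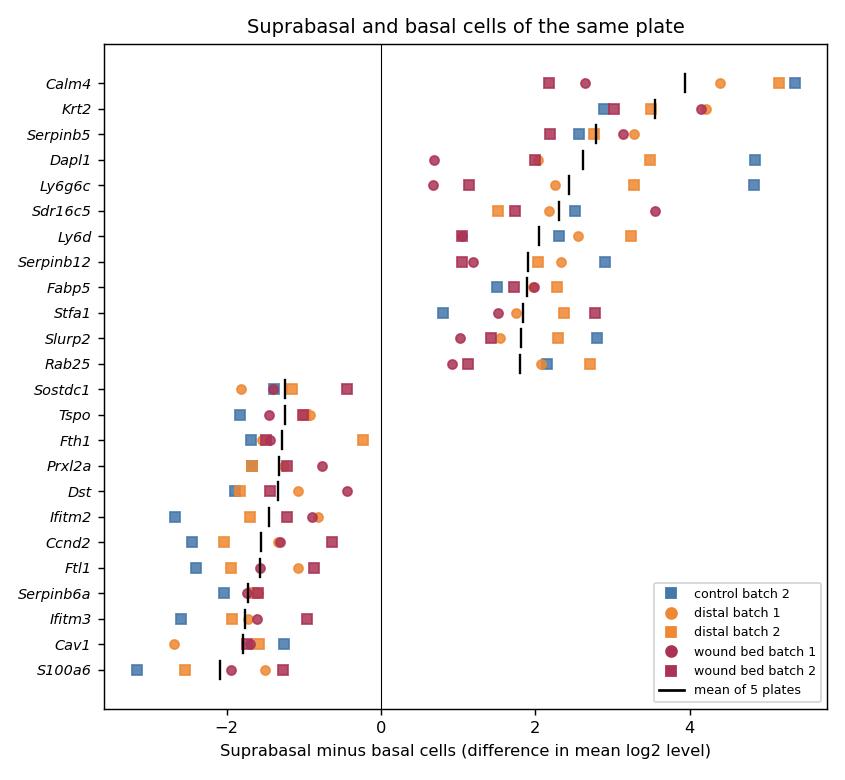
Difference in mean log2 level between suprabasal-gated and basal-gated cells of the same plate (x axis) for 12 genes higher and 12 lower by the size rule, with 1 point per plate and a bar at the mean of the 5 plates. Calm4 has the largest mean (3.94) and S100a6 the lowest (-2.08), and the wound bed plates sit at the lower end for Calm4.

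Cycling was rare in the suprabasal cells. Reads of at least 2 of 5 mitotic genes were present in 2 of 71 (2.82%, exact 95% interval 0.343–9.81), both from the wound bed, against 27 of 128 basal cells (21.1%, 14.4–29.2). After thinning every cell to 10000 reads the shares were 2 of 70 and 22 of 118 (18.6%). Transcripts of the cornified envelope were scarce. Filaggrin (Flg) had no reads in any of the 71, which allows a share of cells with reads of up to 4.23% and does not limit the share that express it, loricrin (Lor) had reads in 1 and involucrin (Ivl) in 2, against 14 of 51 follicle-gated cells for Ivl. Krt77, a suprabasal keratin, was also without reads in all 71. Sprr1a, a small proline-rich envelope precursor, had reads in 12 suprabasal and 25 follicle-gated cells. Transcripts of Lrig1, the gene that drives the reporter, were not seen in any of the 71 cells, while 22 of 128 basal and 11 of 51 follicle-gated cells had some.

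Set against the upper follicle cells, the other differentiating class of the sort, the suprabasal cells differed in 48 of 3033 genes considered (1.58%), with 28 higher (0.923%) and 20 lower (0.659%). Only the 3 plates of batch 2 held 5 or more cells of both classes. With summed counts scaled by TMM the number was 633, of which 46% were higher instead of 58.3%. With DESeq2 size factors it was 661, of which 40.7% were higher. Krt2 was higher in all 3 plates, by 2.82 (control), 3.64 (distal) and 3.13 (wound bed). Stefin A genes stood out on this side as well: 3 of 4 met the rule, Stfa3 by 2.71, Cstdc5 by 2.69 and Stfa1 by 2.21, with a list median of 2.45 beside 0.00 for all genes. Calm4 was higher by 3.24 and 2.59 in the control and distal plates but by 0.18 in the wound bed plate. Its partner Calm5 was higher by 1.85 on average, Mt1 by 1.64, Dapl1 by 1.58 and Ly6a, which encodes the sorted surface protein Sca1, by 1.09.

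Genes lower than in the follicle cells came singly or in small numbers from the lists. Of 5 glutathione transferases, 2 were lower: Gstm5, with plate differences of -2.20, -2.75 and -2.34, and Gstm1, with a mean of -1.30. The list median was -0.40. Of 5 class I antigen presentation genes, B2m, the invariant light chain, was lower at -1.58 and was the 1 that met the rule, with a list median of -0.27. Cathepsin B (Ctsb) differed by -1.65, Ptgr1, a prostaglandin and aldehyde reductase, by -1.73, the adhesion gene Epcam by -1.26, the defensin Defb1 by -1.22 and the cystatin Cstb by -1.29. Of 6 cornified envelope and granular layer genes considered, 1 was lower and none higher, with a list median of -0.58. That gene was Spink5, the kallikrein inhibitor LEKTI, at -1.03.

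The distal region and the wound bed hold most of the suprabasal cells, 12 and 13 against 16 and 21 in batches 1 and 2. A gene met the size rule for regions when its difference was at least 1 in both batches with 1 sign. Of 2501 genes considered, 21 did so (0.84%), with 12 higher (0.48%) and 9 lower (0.36%) in distal cells, and 1 passed the size in both batches with opposite signs. With summed counts scaled by TMM 421 genes met the rule, among them 10 of the 21, and 417 passed the size with opposite signs in the 2 batches, so the batches of summed counts had nearly as many opposed as shared directions. With DESeq2 size factors the numbers were 425 and 403, with 9 of the 21. Without batch 1 and without batch 2, when 1 difference decides, 166 and 80 genes passed. Levels per 10000 non-mitochondrial reads gave 26 genes, with all 21 among them.

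Of 10 early differentiation genes considered, 2 were higher in distal cells, Calm4 and Lgals7, and none lower, with a list median of 0.38 beside 0.05 for all genes. Calm4 had levels of 2.20 to 8.05 (median 6.53) in 25 distal cells, 0.65 to 6.42 (median 3.99) in 37 wound bed cells and 2.40 to 8.69 (median 5.64) in 9 control cells. The ranges overlap, with the distal median above the highest wound bed cell and the control cells alongside the distal ones. The difference between distal and wound bed was 1.20 in batch 1 and 2.72 in batch 2. Calm5 followed with 1.59 and 1.38: it had reads in 23 of 25 distal cells (92%) and 17 of 37 wound bed cells (45.9%). Its transcripts share 16.8% of their 31-base words with Calm4, so reads could be split between the pair. In summed counts scaled by TMM the mean differences of Calm4 and Calm5 were 1.42 and 1.73 and no longer met the rule, and Calm4 also lost it, at 1.79, among cells whose highest average led by at least 1.

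Lgals7, the epithelial lectin galectin-7, had a mean level of 5.36 ± 1.73 (SD, 25 cells) in the distal region and 4.07 ± 1.36 (SD, 37 cells) in the wound bed, with differences of 1.28 and 1.38. Control cells had a mean of 5.85. In TMM-scaled sums the Lgals7 difference was 0.71 and did not meet the rule, so neither early differentiation gene was called there. Ly6g6c, a Ly6-family surface protein gene, had reads in all 9 control cells, 18 of 25 distal cells (72%) and 17 of 37 wound bed cells (45.9%). Its mean level was 4.55 in control, 2.84 in distal and 0.96 in wound bed cells, and the distal cells were higher than wound bed cells by 1.59 and 2.21. The neighbouring groups overlap in range. Of 5 S100 genes considered, 2 were higher in distal cells, S100a14 by 1.14 and 1.44 and S100a16 by 1.26 and 1.04, and the list median was 0.62.

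Postn, which encodes the secreted matrix protein periostin, did not follow that order. It had reads in 2 of 9 control cells, 20 of 25 distal cells (80%) and 10 of 37 wound bed cells (27%), with medians of 0, 2.15 and 0. The distal cells were higher than wound bed cells by 2.16 and 1.11. The call was lost in summed counts (0.87 under TMM, 0.99 under DESeq2), after thinning (1.45) and with a lead of at least 1 (1.42). Basal-gated cells showed the same direction, by 2.53 and 1.72, so the difference was not particular to the suprabasal class. Postn was 1 of 6 bulge stem cell genes listed, and reads of any of the 6 were present in 22 distal, 11 wound bed and 4 control cells. What part other bulge genes have in this was not tested. Cd9, a tetraspanin, was higher in distal cells by 1.19 and 1.96 (0.94 in TMM-scaled sums, without the call), and Hmgcs1, an enzyme of cholesterol synthesis, by 1.27 and 1.06.

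The wound bed side was led by Cstdc5 and Gja1. Cstdc5, a stefin A-like cystatin gene, had reads in 35 of 37 wound bed cells (94.6%) at a median level of 5.44 and in 16 of 25 distal cells (64%) at 2.22. Control cells had a median of 0.21 but levels from 0 to 7.30. Distal minus control was -0.92 and 1.36, with opposite signs in the batches. Distal minus wound bed was -2.36 and -2.28, and met the rule at a mean of -1.26 in TMM-scaled sums. It was -3.13 and -2.99 in basal-gated cells, which again met the rule. Of its 31-base words 43% occur in transcripts of other genes, 35.1% in Stfa1, so its reads may be shared among stefin A genes. Stfa1 itself differed by -0.02 and -0.75, and Stfa3, which shares no such word with another gene, by 0.48 and -0.85. All 5 stefin A genes considered had negative means, 1 met the rule, and the list median was -0.39.

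Gja1, which encodes the gap junction protein connexin 43, was seen mostly in wound bed cells within the suprabasal class. It had reads in 30 of 37 wound bed cells (81.1%), 10 of 25 distal cells (40%) and 2 of 9 control cells, and 75%, 24% and 11.1% after thinning to equal depth. Its highest level was 2.53 in distal and 1.77 in control cells, whereas the wound bed median was 2.22 and its highest cell 5.53. Distal minus wound bed was -2.23 and -1.60, and met the rule at a mean of -5.29 in TMM-scaled sums. In basal-gated cells the differences had the same sign, -0.77 and -0.97, without meeting the rule, and whether the classes differ was not tested.

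Of 2 metallothioneins considered, 1 was on the wound bed side by the rule. Mt2 had a median level of 2.48 in wound bed cells, 0.67 in distal cells and 0.77 in control cells, with differences of -1.39 and -1.44 between distal and wound bed, and -0.83 in TMM-scaled sums, short of the rule. Mt1 differed by -1.18 and -0.58, short of the rule. Mt4, the metallothionein of stratified epithelia that helped to set the gate, had means of 3.47, 4.30 and 4.76 in control, distal and wound bed cells. Slc39a6, a zinc importer, had reads in 22 of 37 wound bed and 5 of 25 distal cells, and differed by -1.55 and -1.24. Against control cells, 3 of 9 of which had reads, neither region met the rule for Slc39a6, with -1.49 and 0.44 for the wound bed and -3.04 and -0.81 for distal cells. Ncl, the nucleolar protein nucleolin, was lower in distal cells by the size rule, at -1.78 and -1.36, as was Cd24a, a surface glycoprotein gene, at -1.02 and -1.15. In basal-gated cells Cd24a met the rule as well, at -1.27 and -1.11. Mt2 (-0.60 and -1.78), Slc39a6 (-0.79 and -1.26) and Ncl (-0.89 and -0.95) had the same sign there without meeting it.

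**Figure D4:**
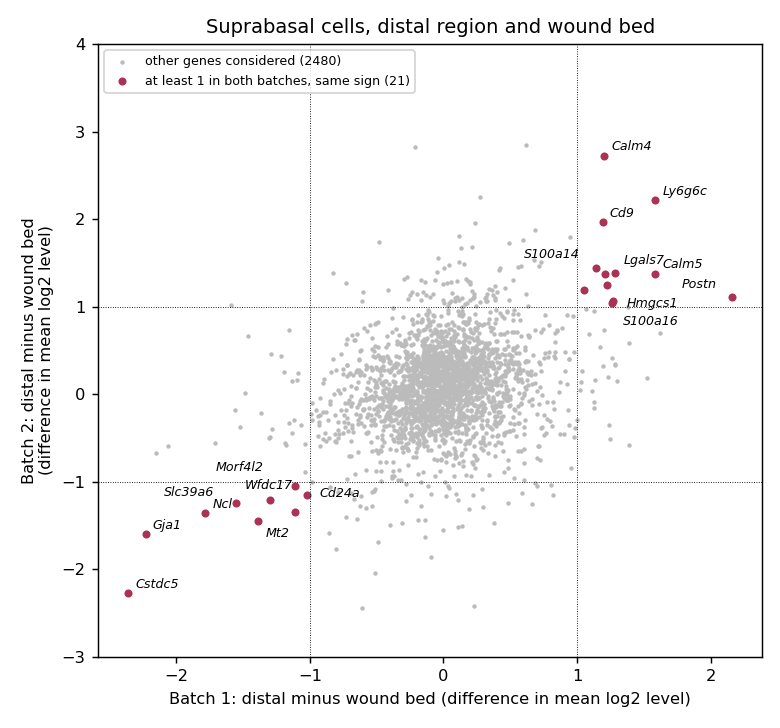
Distal minus wound bed difference in mean log2 level among suprabasal-gated cells in batch 1 (x axis) and batch 2 (y axis), 1 point per gene considered, with the 21 genes that met the size rule in red, those named in the text labelled, and dotted lines at a difference of 1 in either direction. Calm4, Ly6g6c and Postn lie at the upper right and Cstdc5 and Gja1 at the lower left.

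Basal keratins are gate genes, so their levels within the members are a description. A Krt14 level of 2 or more was found in 20 of 37 wound bed cells (54.1%), 4 of 25 distal cells (16%) and 2 of 9 control cells. Krt5, its partner, had reads in 24 wound bed, 4 distal and 0 control cells. Krt14 and Krt5 levels went together over the 71 cells (r = 0.82 after centring within plates, a description over cells that share plates and depth), and Krt14 ran against Krt10 (r = -0.62). With members of Krt14 level under 2 alone, 13 genes met the rule, 3 higher and 10 lower, and 7 of these were among the 21, including Ly6g6c, S100a14, Cstdc5, Ncl, Morf4l2 and Wfdc17. The others of the 21 lost the call, with the same sign: Calm4 at a mean of 1.56, Calm5 at 1.14, Lgals7 at 0.81, Cd9 at 1.47, Postn at 0.57, S100a16 at 0.71 and Hmgcs1 at 1.04 on the distal side, and Gja1 at -1.75, Mt2 at -0.75, Slc39a6 at -1.23 and Cd24a at -1.27 on the wound bed side, among others.

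Of the follicle genes of the gate, again as a description, Defb6, a defensin of the upper follicle, was at a level of 2 or more in 5 of 9 control cells, 8 of 25 distal cells and 5 of 37 wound bed cells, and Cst6, a cystatin, in 5, 6 and 6. Among members with a Defb6 level under 2, 21 genes met the rule and 15 of them were shared with the list above, Calm4, Gja1, Postn and Cstdc5 included. Lgals7, Cd9 and Mt2 were not. Outside the gate genes, of 2363 genes detected in members, Degs1, a ceramide desaturase, and Calm4 had the closest relation to the average of the 5 gate genes within plates (r = 0.60 and 0.55, as a description), and Lgals7 and Ly6g6c were also among the top 10 (r = 0.51 and 0.52). Calm4 and Lgals7 also ran against log2 reads per cell (r = -0.33 and -0.41).

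**Figure D5:**
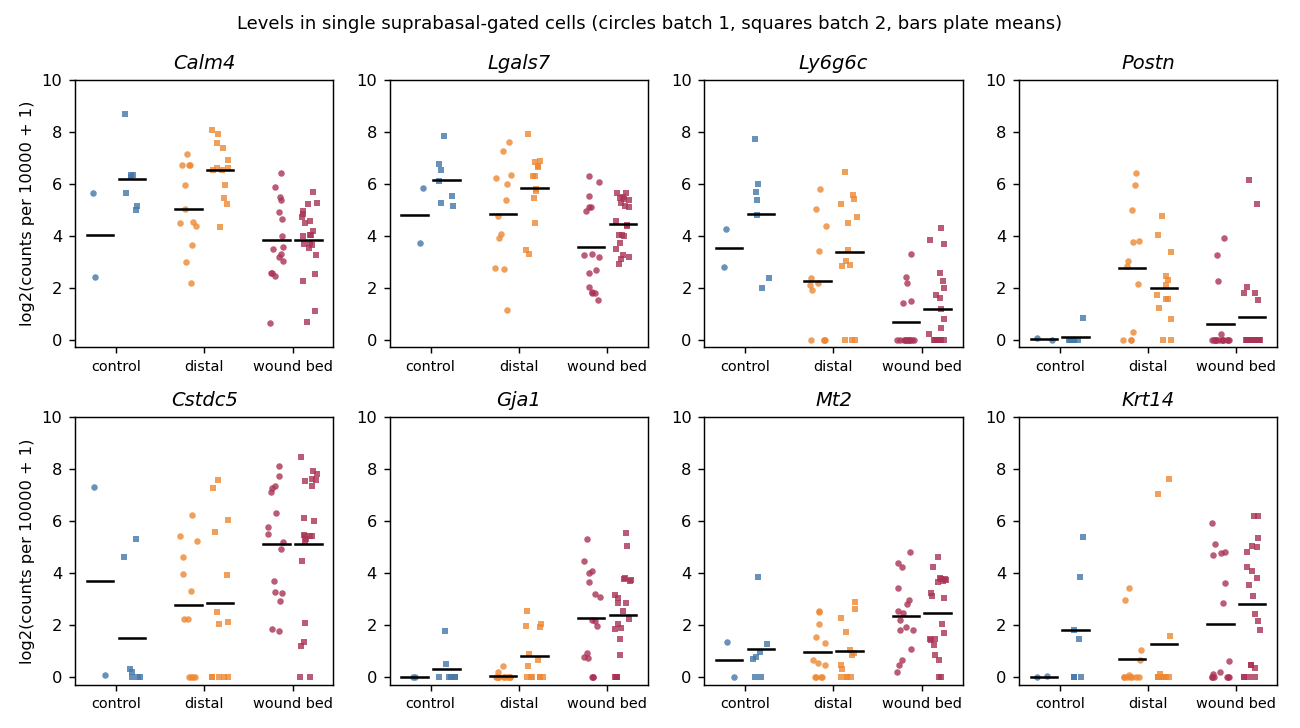
Log2 level in each suprabasal-gated cell (y axis) of 8 genes by region, with circles for batch 1, squares for batch 2 and bars at plate means. Calm4, Lgals7 and Ly6g6c are lowest in the wound bed, Postn is highest in distal cells, and Cstdc5, Gja1, Mt2 and Krt14 are highest in the wound bed.

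The control comparisons rest on 9 cells, of which 5 had a Defb6 level of 2 or more and 4 an upper follicle average above 0. Among the 37 wound bed cells these numbers were 5 and 4, and among the 25 distal cells 8 and 4. Neither control comparison was run without such cells, so their part in the differences was not tested. Control batch 1 held only 2 suprabasal cells, both of the repeat-rich kind, so no value could be had without them, and the wound bed and distal comparisons share these control cells. Between wound bed and control, 38 of 2595 genes considered met the rule (1.46%), with 24 higher (0.925%) and 14 lower (0.539%), while 14 passed the size in both batches with opposite signs. In summed counts 81% of 720 genes were higher under TMM and 71.6% of 689 under DESeq2, instead of 63.2%, while 549 and 567 passed with opposite signs. Without batch 1 and without batch 2 the numbers were 159 and 564.

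In wound bed cells Gja1 was higher than in control cells by 2.28 and 2.07, and Mt2 by 1.69 and 1.37. Of 5 stefin A genes considered, 2 were higher, Stfa1 by 2.01 and 2.52 and Cstdc5 by 1.45 and 3.64, and the list median was 2.25 beside 0.06 for all genes. Fgfbp1, a carrier that frees fibroblast growth factors from the matrix, was higher by 2.11 and 1.68, with reads in 3 of 9 control cells but 32 of 37 from the wound bed. Ly6a was higher by 2.60 and 1.39, with reads in 34 of 37 wound bed (91.9%), 11 of 25 distal (44%) and 3 of 9 control cells, although Sca1 on the surface was a condition of the sort in all 3 regions. Psat1, an enzyme of serine synthesis, had reads in 27 of 37 wound bed cells. It was without reads in the 9 control cells (0 of 9), which allows a share of cells with reads of up to 33.3%. In basal-gated cells Mt2 (1.38 and 1.43), Cstdc5 (3.74 and 3.61) and Psat1 (1.02 and 1.48) met the rule as well. Gja1, Stfa1, Fgfbp1 and Ly6a had the same sign there without meeting it. Whether the classes differ was not tested.

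Lower in wound bed than in control cells were Ly6g6c, at -2.85 and -3.67, Dapl1, at -2.80 and -2.10, and Lgals7, at -1.22 and -1.71. The kallikrein proteases Klk8 and Klk7, which help to shed the outer layers, differed by -3.37 and -1.41 and by -1.13 and -1.14. Klk8 had reads in 8 of 9 control, 15 of 25 distal and 11 of 37 wound bed cells. Calm4 differed by -0.18 and -2.37 and did not meet the rule. Of 10 early differentiation genes, 1 was lower and none higher, with a list median of -0.33.

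Between distal and control cells 32 of 2827 genes considered met the rule (1.13%), with 22 higher (0.778%) and 10 lower (0.354%), and 11 passed the size with opposite signs. Summed counts gave 705 genes under TMM, of which 81.8% were higher instead of 68.8%, and 703 under DESeq2, while 659 and 677 passed with opposite signs. Without batch 1 and without batch 2 the numbers were 128 and 562. Stfa1 was higher in distal cells by 1.99 and 1.77, Stfa3 by 1.33 and 2.81, Fgfbp1 by 2.41 and 1.96 and Postn by 2.73 and 1.87. Stfa3 had reads in 24 of 25 distal, 34 of 37 wound bed and 5 of 9 control cells. Of 4 stefin A genes considered 2 met the rule, and the list median was 1.05 beside 0.11. Ly6g6c was lower, at -1.27 and -1.46. In basal-gated cells Postn also met the rule, at 1.67 and 1.22, whereas Stfa1, Stfa3, Fgfbp1 and Ly6g6c did not. Gja1 differed by 0.05 and 0.47, Mt2 by 0.30 and -0.07 and Calm4 by 1.02 and 0.35, none of which met the rule.

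Some members carried keratins of other programmes. Krt36 or Krt84, keratins of hard structures that mark the scales of tail skin, had reads in 6 of 71 cells, 1 distal and 5 wound bed, with levels of up to 8.94 for Krt36 and 6.99 for Krt84. Krt6a, a keratin induced in wounds and present in follicles, had reads in 14 of 37 wound bed (37.8%), 1 of 25 distal and 0 of 9 control cells. Its distal minus wound bed differences of -0.79 and -1.12 did not meet the rule.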

How the data were processed

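Per the labels' protocols, single Sca1+ cells were sorted into lysis buffer and sequenced by Smart-Seq2, which has no molecular identifiers. The authors deposited whole-number counts of reads per gene for 250 cells and 27003 gene symbols (5495 without reads). Per the submitters' processing notes, Salmon 0.13.1, Seurat and R 4.0.3 were used with mm10 (GRCm38); the role of each, the summing to genes and the rounding are not stated there. If these counts are rounded estimates, reads that fit several genes were divided among them. Of 290 listed genes, 18 were not analysed here.

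Levels, gates, the size rules and intervals were computed in Python 3.11.15 (numpy 2.4.6, pandas 2.3.3, scipy 1.17.1); sums were scaled with edgeR 4.0.16 (TMM) and DESeq2 1.42.0 in R 4.3.3, as alternatives and without a test. A gene was considered in a region comparison when at least 25% of the suprabasal cells of 1 of the 2 regions had reads, in each batch, and in a class comparison by the like share of a class; the 17 gate genes were left out. No cell was dropped, no doublets were called, and 12 cells under 10000 reads, 1 of them a member, were left out of thinned shares. Intervals are exact Clopper-Pearson 95% intervals and a share of 0 has a limit of 3 counts. The scripts were tested on simulated data.

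Genes named are gate genes, members of the fixed lists and up to 12 per direction and comparison by size. The members and lists were chosen with earlier results of these data known. Gene names were matched to GENCODE M21 (GRCm38), and upstream sequences to RefSeq GRCm38.p6. Reads per cell over the series ranged from 3857 to 3119120 (median 49298).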

Additional observations from a re-analysis of the deposited data

Results flagged for a closer look

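In suprabasal-gated cells, 25 named genes met the size rule between wound bed and control. The numbers were 17 between distal and control and 20 between distal and wound bed. Of these gene differences, 7 had the opposite sign in both batches of basal-gated cells. Some of the basal values lay close to 0, among them both of Klk8 and both of Pdzk1ip1, and a sign there says little. The difference between the classes was not tested. Calm4 was higher in distal than in wound bed suprabasal cells by 1.96 on average (1.20 and 2.72), while basal cells differed by -0.54 and -0.25. Morf4l2, a chromatin gene, differed by -1.08 between the same suprabasal cells (-1.11 and -1.05) and by 0.62 and 0.05 in basal cells. Dapl1 was lower in wound bed than in control suprabasal cells (mean -2.45, batches -2.80 and -2.10), with 1.62 and 0.75 in basal cells. Emp1, an epithelial membrane protein gene, differed by -2.26 (-3.12 and -1.40), with 0.09 and 0.81 in basal cells, and Klk8 by -2.39 (-3.37 and -1.41), with basal values close to 0. Between distal and control suprabasal cells Bag1, a chaperone partner, was higher by 1.11 (1.06 and 1.15), with -0.02 and -0.35 in basal cells, and Pdzk1ip1, a small membrane protein gene, differed by -1.23 (-1.21 and -1.24), with 0.08 and 0.04 in basal cells. The values of Dapl1, Emp1, Klk8, Bag1 and Pdzk1ip1 rest on the 9 control cells.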

How the results depend on the processing

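The suprabasal shares of the 3 regions kept their order under all alternatives run, with 7.14 to 12.5% in control, 26.5 to 37.5% in the distal region and 38.2 to 53.3% in the wound bed. Of the alternative values of the 126 named gene differences, 1006 came from settings that could turn a sign, and none of these did, although many no longer met the size rule. The differences had been picked for their size and shared sign, and most settings reuse the same cells. Few turns of sign could thus occur, and their absence says little. Counts of genes moved most when counts were summed over cells: TMM gave 720 for wound bed and control, 705 for distal and control, 421 for distal and wound bed, 392 against basal cells and 633 against follicle cells, and DESeq2 size factors gave 689, 703, 425, 410 and 661. The limit of 1 is not an equal cut for sums and for mean levels per cell. Leaving out batch 1 or batch 2 left 1 difference per gene, and the numbers were 159 and 564 for wound bed and control, 128 and 562 for distal and control, and 166 and 80 for distal and wound bed. Against basal cells they were 79 and 69, and against follicle cells 48 without batch 1, with no value without batch 2. Among members with a Krt14 level under 2, chosen after seeing the data like the Defb6, repeat-rich, mitochondrial and wider-margin alternatives, 13 genes met the rule for distal and wound bed. No paired analysis was possible because no test was run: the labels name no animal, and every region difference was already taken within a batch. The 9 control cells limit both control comparisons.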
